A study of Mus musculus with 12 samples.

Results

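Lung endothelial cells that lack MLK2 and MLK3 were compared with wild type cells after both had been kept in low oxygen. FPKM values (fragments scaled to transcript length and library size) were summed over the transcripts of each gene identifier. Of 23422 identifiers, the 11378 that averaged 1 FPKM or more over all 12 libraries entered the comparison. One group was mouse lung endothelial cells of MLK2-/-MLK3-/- mice (double knockout, DKO) held at 1% oxygen for 90 min, with 3 libraries. It was set against the same cell type from C57BL/6J mice (wild type, WT), also at 1% oxygen for 90 min, with 3 libraries. The strain background of the DKO mice is not stated in the labels. Cells of each genotype at 21% oxygen, again 3 libraries each, show below whether a difference was also present in normoxia. They also entered the minimum mean of 1 FPKM and the estimate of spread behind each SE and p.

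Mixed lineage kinases (MLKs) are MAP kinase kinase kinases: they phosphorylate MKK4 and MKK7, which in turn activate the stress kinase JNK, and JNK phosphorylates c-Jun in the AP-1 transcription factor. Endothelial cells in low oxygen stop hydroxylating the alpha subunits of hypoxia-inducible factor (HIF), which then raises genes of glycolysis, vessel growth and iron and acid balance. The series was designed to find pathways that act after the MLK family.

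Every difference below is of log2(FPKM + 1), DKO minus WT, so it understates the change of genes at low levels. A gene was called when its p from limma, adjusted by Benjamini-Hochberg over all 11378 genes, was under 0.05. Values after ± are SD (n = 3 libraries), and SE is the standard error of the fitted difference. Whether the replicate libraries are separate cultures or animals is not stated in the labels, and p therefore covers only the spread between these samples. In bulk RNA of this kind, fewer cells of a type and less RNA per cell cannot be told apart. The hypoxia libraries held an estimated 21400000 to 26000000 fragments and 11281 to 11358 genes at 1 FPKM or more. On the log2 scale, DKO and WT hypoxia libraries correlated with each other at Pearson's r of 0.9898 to 0.9915, and libraries at 0.9937 to 0.9955 within the groups of the series.

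The endothelial label was checked against 32 pan-endothelial markers, of which 31 were tested. Pecam1, an adhesion molecule of endothelial junctions, stood at 628, 640.2 and 623 FPKM in DKO hypoxia libraries, against 583, 565 and 548 FPKM in WT hypoxia libraries. Cdh5, the endothelial cadherin, was at 161 ± 4.68 FPKM in DKO and 161 ± 14.2 FPKM in WT (log2 fold change 0.00, limma adjusted p = 0.984). The exception was Vwf, the von Willebrand factor gene, which lay between 0.0688 and 0.208 FPKM in the 6 hypoxia libraries.

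The targeted genes were low in all 3 DKO libraries. Map3k10 (ENSMUSG00000040390, GRCm38 chromosome 7, 27656375 to 27674598), which encodes MLK2, had 1.34, 1.15 and 1.02 FPKM in DKO hypoxia libraries, against 19.1, 16.6 and 16.7 FPKM in WT hypoxia libraries. The DKO mean was 6.70% of the WT mean (log2 fold change -3.09, SE 0.0704, limma adjusted p = 2.33e-10). Its transcript ENSMUST00000138243 was listed at 0 in each DKO library and at 13.8 ± 0.957 FPKM in WT, while ENSMUST00000036453 had 1.17 ± 0.157 FPKM in DKO and 3.62 ± 0.567 FPKM in WT.

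Map3k11 (ENSMUSG00000004054, GRCm38 chromosome 19, 5688742 to 5702865), which encodes MLK3, had 12.2, 11.5 and 11.2 FPKM in DKO hypoxia libraries, against 32.4, 34.4 and 31.9 FPKM in WT hypoxia libraries. The groups did not overlap for either gene. The DKO mean of Map3k11 was 35.3% of the WT mean (log2 fold change -1.43, SE 0.0476, limma adjusted p = 6.78e-09), and the exons missing from each allele are not stated in the labels. The two-sided exact permutation p was 0.1 for each of the targeted genes, the smallest that 3 against 3 libraries allow. Related kinases did not pass the threshold. Map3k12, which encodes the dual leucine zipper kinase, was at 8.81 ± 0.654 FPKM in DKO and 8.58 ± 0.809 FPKM in WT (log2 fold change 0.04, limma adjusted p = 0.824). Zak, another MLK-like kinase, was at 44.9 ± 1.36 FPKM in DKO and 42 ± 1.45 FPKM in WT (log2 fold change 0.09, limma adjusted p = 0.228). Map3k9, which encodes MLK1, was below the expression minimum, at 0.394, 0.411 and 0.455 FPKM in DKO and 0.406, 0.409 and 0.378 FPKM in WT.

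Across all genes the difference took in many genes, most of them by small amounts. Limma called 1832 of 11378 genes (16.1%), of which 874 were higher in DKO (7.68%) and 958 were lower (8.42%). The median size of a called change was 0.29 on the log2 scale, a 1.22-fold change of FPKM + 1. Changes over 0.5 were found in 134 higher and 161 lower genes, and changes over 1 in 18 higher and 18 lower genes. The DKO and WT libraries did not overlap in 1814 of the called genes, whereas 4072 of all 11378 genes (35.8%) had groups that did not overlap. Setting the library medians equal put the higher genes at 54.7% of the called genes instead of 47.7%, so the balance of higher and lower genes depends on scaling.

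**Figure D1:**
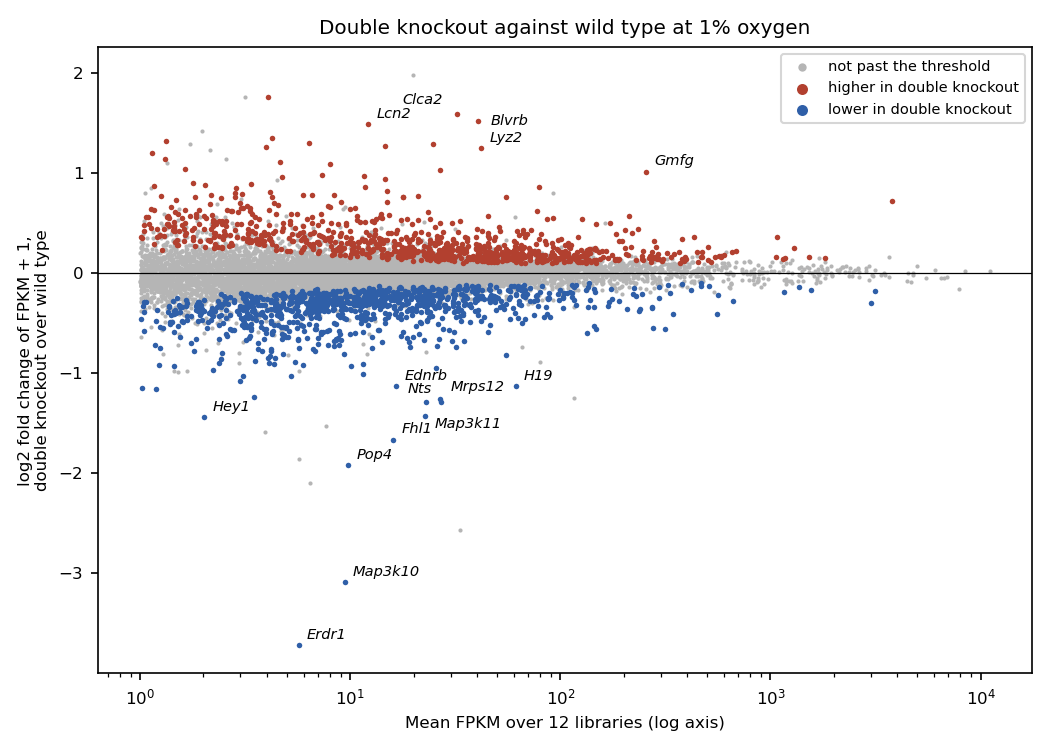
Each point is 1 of 11378 genes at 1% oxygen. The x axis is the mean FPKM over 12 libraries on a log axis, and the y axis is the log2 fold change of FPKM + 1, DKO over WT. Red points are the 874 genes called higher in DKO and blue points the 958 called lower. Erdr1 and Map3k10 lie lowest, with log2 fold changes of -3.72 and -3.09, and Clca2 lies at 1.58.

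The genes that rose most in DKO hypoxia cells included channel, haem, matrix and myeloid-type genes. These leading genes were chosen among called genes whose DKO and WT hypoxia libraries do not overlap. The lack of overlap given for them below is thus a condition of the choice and not a result. Clca2 (ENSMUSG00000036960, GRCm38 chromosome 3, 145070263 to 145099443), of the family of calcium-activated chloride channel regulators, had 51.5, 49 and 49 FPKM in DKO hypoxia libraries, against 15.4, 16.8 and 15.7 FPKM in WT hypoxia libraries. All 3 DKO libraries stood well above all 3 WT libraries, at a mean 3.12 times that of WT (log2 fold change 1.58, SE 0.0598, limma adjusted p = 2.10e-08). Blvrb, which encodes biliverdin reductase B, had 58.4, 66.5 and 61.3 FPKM in DKO hypoxia libraries, against 22.1, 22 and 19.1 FPKM in WT hypoxia libraries. Again no libraries overlapped (log2 fold change 1.52, SE 0.0613, limma adjusted p = 3.72e-08). Lcn2, whose product lipocalin 2 binds bacterial iron carriers, had 21.4, 16.8 and 21.3 FPKM in DKO hypoxia libraries, against 7.11, 8.09 and 4.49 FPKM in WT hypoxia libraries. Every DKO library lay above every WT library (log2 fold change 1.49, SE 0.158, limma adjusted p = 9.51e-05).

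Matrix and enzyme genes followed. Col15a1, a collagen chain of basement membranes, had 8.2, 7.08 and 6.2 FPKM in DKO, against 2.05, 2.38 and 2.13 FPKM in WT (log2 fold change 1.35, SE 0.0867, limma adjusted p = 2.02e-06). Dapk2, a calmodulin-regulated death-associated kinase, had 27.3, 26.3 and 28.4 FPKM in DKO, against 10.1, 9.91 and 12 FPKM in WT (log2 fold change 1.28, SE 0.065, limma adjusted p = 2.74e-07). Every DKO library of both genes lay above every WT library. Kcnj2, which encodes the inward rectifier channel Kir2.1 that sets the resting potential of endothelium, had 3.12, 3.36 and 3.31 FPKM in DKO, against 1.19, 1.03 and 1.03 FPKM in WT. The DKO values of Kcnj2 were close together and well above WT (log2 fold change 1.03, SE 0.0764, limma adjusted p = 6.45e-06). Msmp, a microseminoprotein gene, was at 10.9 ± 1.01 FPKM in DKO and 4.6 ± 0.202 FPKM in WT (log2 fold change 1.09, SE 0.1, limma adjusted p = 3.42e-05). Eps8l1, a relative of the actin regulator EPS8, was more variable, at 11.6, 8.41 and 6.71 FPKM in DKO, against 5.4, 2.18 and 2.04 FPKM in WT (log2 fold change 1.29, SE 0.276, limma adjusted p = 0.0083). Cxx1c, a CAAX box gene on chromosome X, had 5.23, 9.04 and 6.13 FPKM in DKO, against 2.36, 2.12 and 3.28 FPKM in WT (log2 fold change 1.10, SE 0.188, limma adjusted p = 0.00218). It has near-identical copies, so the split of fragments between them is uncertain.

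Several of the most raised genes are known from myeloid cells. Lyz2, macrophage lysozyme, had 55.4, 62.2 and 61.1 FPKM in DKO hypoxia libraries, against 24, 23.8 and 25.7 FPKM in WT hypoxia libraries, and the groups did not overlap (log2 fold change 1.25, SE 0.114, limma adjusted p = 3.42e-05). Marco, a scavenger receptor of macrophages, had 2.06, 1.61 and 3.4 FPKM in DKO, against 0.438, 0.239 and 0.836 FPKM in WT (log2 fold change 1.14, SE 0.184, limma adjusted p = 0.00147). In both genes each DKO library was above each WT library, and Marco was the more variable of them. C3, the central complement component, had 8.47, 5.03 and 5.87 FPKM in DKO, against 1.77, 2.85 and 1.7 FPKM in WT (log2 fold change 1.25, SE 0.157, limma adjusted p = 0.000292). Casp1, the protease that matures interleukin 1 beta, had 2.29, 2.11 and 1.82 FPKM in DKO, against 0.278, 0.322 and 0.408 FPKM in WT (log2 fold change 1.20, SE 0.124, limma adjusted p = 8.04e-05). Prg2, known as the major basic protein of eosinophils, had 1.99, 2.58 and 2.01 FPKM in DKO, against 0.529, 0.078 and 0.272 FPKM in WT (log2 fold change 1.32, SE 0.13, limma adjusted p = 5.82e-05). C3, Casp1 and Prg2 were at low levels in both genotypes and did not overlap between them.

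Of 20 macrophage and leukocyte markers, 8 were tested, 3 of them rose (Lyz2, Marco and Coro1a, a coronin of leukocyte actin, with log2 fold change 0.68 and limma adjusted p = 0.00286) and 5 did not pass. The share called was 37.5%, beside 16.1% of all genes. All 8 fitted values were above 0, with a median of 0.26. The summed level of all 20 was 95.2 to 104.2 FPKM in DKO and 57.8 to 59.8 FPKM in WT hypoxia libraries. Lyz2 made up most of that gap: without it the sum was 39.8 to 43.1 FPKM in DKO and 32.0 to 35.8 FPKM in WT. Of the 20, 5 were under 0.1 FPKM in all 6 libraries, among them Lyz1, Itgam and Cx3cr1 of myeloid cells and Cd3e of T cells. Ptprc, the pan-leukocyte antigen CD45, had 0.300, 0.291 and 1.28 FPKM in DKO and 0.108, 0.312 and 0.142 FPKM in WT, so 1 DKO library stood above the rest. The part of leukocyte RNA in the rise of Lyz2, Marco, C3, Casp1, Prg2 and Lcn2 was not tested.

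**Figure D2:**
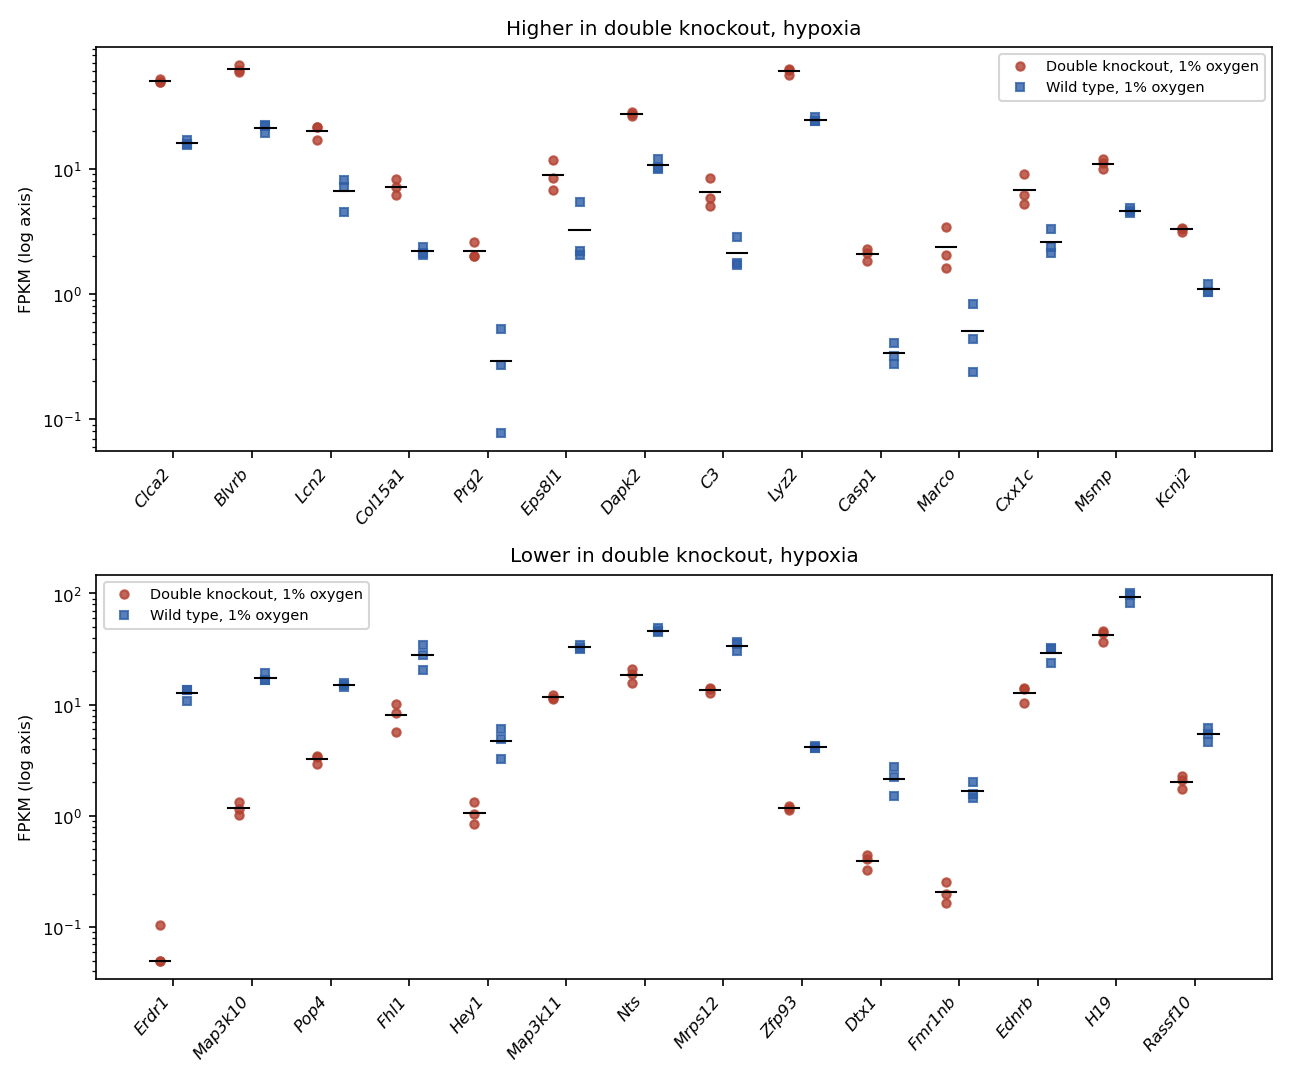
FPKM on a log axis for the named genes with the largest positive (14 genes, upper panel) and largest negative (14 genes, lower panel) changes. Each point is 1 library at 1% oxygen, DKO left of WT, and the short line is the group mean; values of 0 are drawn at 0.05 FPKM. Clca2 lies at 49.0 to 51.5 FPKM in DKO and at 15.4 to 16.8 FPKM in WT. The genes were chosen among those whose groups do not overlap.

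The leading genes that fell were likewise chosen among called genes whose groups do not overlap, so their lack of overlap is not a result. Among the genes that fell, Erdr1 had the largest change. It is annotated in the pseudoautosomal region of the sex chromosomes and had 0, 0 and 0.104 FPKM in DKO hypoxia libraries, against 13.5, 13.6 and 10.9 FPKM in WT hypoxia libraries. Erdr1 was thus listed at or near 0 in all DKO libraries (log2 fold change -3.72, SE 0.1, limma adjusted p = 8.37e-10), and since the region is repeated its level is uncertain. The size of its fold change depends on the 1 FPKM added before taking logs. Pop4, a protein subunit of RNase P and RNase MRP, had 3.37, 3.46 and 2.91 FPKM in DKO hypoxia libraries, against 15, 14.4 and 15.7 FPKM in WT hypoxia libraries. Fhl1, a LIM domain protein that binds the cytoskeleton, had 8.45, 10.1 and 5.67 FPKM in DKO hypoxia libraries, against 34.7, 27.9 and 20.7 FPKM in WT hypoxia libraries. Both genes had every DKO library below every WT library (Pop4: log2 fold change -1.92, SE 0.0948, limma adjusted p = 2.66e-07). The change of Fhl1 was of similar size with more spread (log2 fold change -1.66, SE 0.201, limma adjusted p = 0.000233).

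Other genes with large falls were of several kinds. Mrps12, a protein of the small mitochondrial ribosomal subunit, had 14.2, 12.7 and 13.9 FPKM in DKO, against 30.6, 34.8 and 36.6 FPKM in WT (log2 fold change -1.26, SE 0.0668, limma adjusted p = 4.12e-07). Zfp93, a zinc finger gene, was at 1.18 ± 0.0396 FPKM in DKO and 4.15 ± 0.106 FPKM in WT (log2 fold change -1.24, SE 0.0693, limma adjusted p = 6.32e-07). H19, an imprinted long noncoding RNA, had 44.3, 45.7 and 36.5 FPKM in DKO hypoxia libraries, against 97.8, 100.5 and 82.2 FPKM in WT hypoxia libraries, with no overlap (log2 fold change -1.13, SE 0.0837, limma adjusted p = 6.45e-06). Igf2, the growth factor gene beside H19 and expressed from the other parental allele, fell as well, at 1.12 ± 0.131 FPKM in DKO and 2.32 ± 0.344 FPKM in WT (log2 fold change -0.64, SE 0.0947, limma adjusted p = 0.000825). Both of these imprinted genes were lower in DKO. Rassf10, a Ras association domain gene, was at 2.03 ± 0.278 FPKM in DKO and 5.43 ± 0.764 FPKM in WT (log2 fold change -1.08, SE 0.11, limma adjusted p = 7.04e-05). Fmr1nb was at 0.206 ± 0.0445 FPKM in DKO and 1.68 ± 0.307 FPKM in WT (log2 fold change -1.15, SE 0.165, limma adjusted p = 0.000715).

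Endothelial receptors and Notch genes completed the set of largest falls. Ednrb, the endothelin B receptor that clears endothelin and triggers nitric oxide release, had 14.1, 13.7 and 10.4 FPKM in DKO hypoxia libraries, against 32.1, 31.5 and 23.9 FPKM in WT hypoxia libraries (log2 fold change -1.13, SE 0.118, limma adjusted p = 8.09e-05). Nts, which encodes neurotensin, had 19, 20.8 and 15.8 FPKM in DKO hypoxia libraries, against 44.7, 48.6 and 46.1 FPKM in WT hypoxia libraries. All 3 DKO values were far below all 3 WT values (log2 fold change -1.29, SE 0.0786, limma adjusted p = 1.37e-06). Hey1, a repressor induced by Notch, had 1.04, 1.33 and 0.843 FPKM in DKO hypoxia libraries, against 4.94, 6 and 3.23 FPKM in WT hypoxia libraries (log2 fold change -1.44, SE 0.157, limma adjusted p = 0.000116). Dtx1, a ubiquitin ligase that modulates Notch, had 0.445, 0.41 and 0.325 FPKM in DKO hypoxia libraries, against 2.22, 2.74 and 1.5 FPKM in WT hypoxia libraries (log2 fold change -1.16, SE 0.165, limma adjusted p = 0.000669). Both had every DKO library below every WT library. Klf2, a flow-responsive transcription factor of quiescent endothelium, had 2.87, 2.47 and 2.42 FPKM in DKO hypoxia libraries, against 6.4, 6.45 and 4.14 FPKM in WT hypoxia libraries (log2 fold change -0.88, SE 0.124, limma adjusted p = 0.000662). It was singled out after its values were seen. Neither Hey1 nor Klf2 passed the threshold in normoxia (limma log2 fold change -0.38, adjusted p = 0.179, and -0.16, adjusted p = 0.507). The difference between the oxygen levels did not pass either, at -1.06 for Hey1 (limma adjusted p = 0.078) and -0.72 for Klf2 (limma adjusted p = 0.0971).

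Of 34 tested members of the JNK, p38 and ERK cascade, 3 rose, 1 fell and 30 did not pass (11.8% called, beside 16.1% of all genes), with a median of -0.01 against -0.00 over all genes. The lower count was 2 without DKO library 1 or WT library 3. Map3k8, the kinase TPL2, had 6.29, 6.68 and 5.76 FPKM in DKO, against 4.68, 4.66 and 3.95 FPKM in WT (log2 fold change 0.42, SE 0.0939, limma adjusted p = 0.0111). Map3k7, the TGF-beta activated kinase TAK1, had 31.9, 32.1 and 32.8 FPKM in DKO, against 29, 27.8 and 28.3 FPKM in WT (log2 fold change 0.18, SE 0.0333, limma adjusted p = 0.00348). Map3k4, another activator of p38 and JNK, fell, with 5.17, 4.93 and 4.93 FPKM in DKO, against 5.82, 6.13 and 6.49 FPKM in WT (log2 fold change -0.25, SE 0.0542, limma adjusted p = 0.00928). The kinases that MLKs phosphorylate did not pass: the kinase MKK4 (Map2k4) was at 21 ± 1.89 FPKM in DKO and 19.3 ± 1.23 FPKM in WT (log2 fold change 0.11, limma adjusted p = 0.278). MKK7 (Map2k7) was at 16.4 ± 0.104 FPKM in DKO and 14.7 ± 1.18 FPKM in WT (log2 fold change 0.14, limma adjusted p = 0.147). Mapk8, which encodes JNK1, was at 21.6 ± 1.16 FPKM in DKO and 23.6 ± 1.13 FPKM in WT (log2 fold change -0.12, limma adjusted p = 0.187). These are RNA levels and say nothing of phosphorylation.

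AP-1 and immediate early genes moved in both directions. Of 22 tested, 5 rose, 3 fell and 14 did not pass, with a median of 0.00 (36.4% called, beside 16.1% of all genes). Without WT library 2 the counts were 3 higher and 2 lower, without DKO library 1 or WT library 3 the higher count was also 3, without DKO library 3 the lower count was also 2, and without DKO library 2 it was 5. Jun was at 27.1, 29 and 27.6 FPKM in DKO, against 27.2, 28.2 and 28.2 FPKM in WT, and the groups overlapped (log2 fold change 0.00, SE 0.0436, limma adjusted p = 0.994). Ier3, a stress-induced survival gene, had 401, 404 and 372 FPKM in DKO, against 336, 295 and 244 FPKM in WT (log2 fold change 0.44, SE 0.0872, limma adjusted p = 0.00566). Ier5, an early response gene linked to heat shock factor, had 64.3, 64.5 and 63.2 FPKM in DKO, against 53, 51.9 and 53.9 FPKM in WT (log2 fold change 0.27, SE 0.0415, limma adjusted p = 0.00111). The DKO libraries of both genes lay above all WT libraries. Batf, a partner of Jun proteins, had 4.06, 3.17 and 4.2 FPKM in DKO, against 1.94, 2.06 and 2.14 FPKM in WT (log2 fold change 0.65, SE 0.143, limma adjusted p = 0.00965). Ier5l, a relative of Ier5, fell, with 6.01, 6.38 and 7.64 FPKM in DKO, against 8.64, 8.66 and 9.28 FPKM in WT (log2 fold change -0.37, SE 0.0737, limma adjusted p = 0.00604).

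Feedback inhibitors of ERK and JNK fell in part. Of 19 tested MAP kinase phosphatases and ERK feedback genes, 5 fell, 1 rose and 13 did not pass, with a median of -0.07 (31.6% called, beside 16.1% of all genes). Dusp5, a nuclear phosphatase of ERK, had 10.2, 9.84 and 9.93 FPKM in DKO hypoxia libraries, against 12.9, 14.3 and 13.3 FPKM in WT hypoxia libraries. The DKO values were close together and below all WT values (log2 fold change -0.40, SE 0.0519, limma adjusted p = 0.000367). Dusp6, its cytoplasmic counterpart, had 18.9, 20.1 and 20.2 FPKM in DKO, against 23, 24.7 and 31.1 FPKM in WT (log2 fold change -0.38, SE 0.0867, limma adjusted p = 0.0111). All of these DKO values were below the WT values. Dusp4, another nuclear MAP kinase phosphatase, was at 10.6 ± 0.164 FPKM in DKO and 12.4 ± 0.245 FPKM in WT (log2 fold change -0.22, limma adjusted p = 0.00782). Spry2, an inhibitor of receptor tyrosine kinase signalling, was at 8.38 ± 0.166 FPKM in DKO and 10.0 ± 0.537 FPKM in WT (log2 fold change -0.23, limma adjusted p = 0.0114). With any 1 library left out, 4 to 6 genes of the list were called lower and 0 to 2 higher (0 without DKO library 1, WT library 1 or WT library 2, and 2 without WT library 3). The higher gene, Etv4, is given with the oxygen levels.

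**Figure D3:**
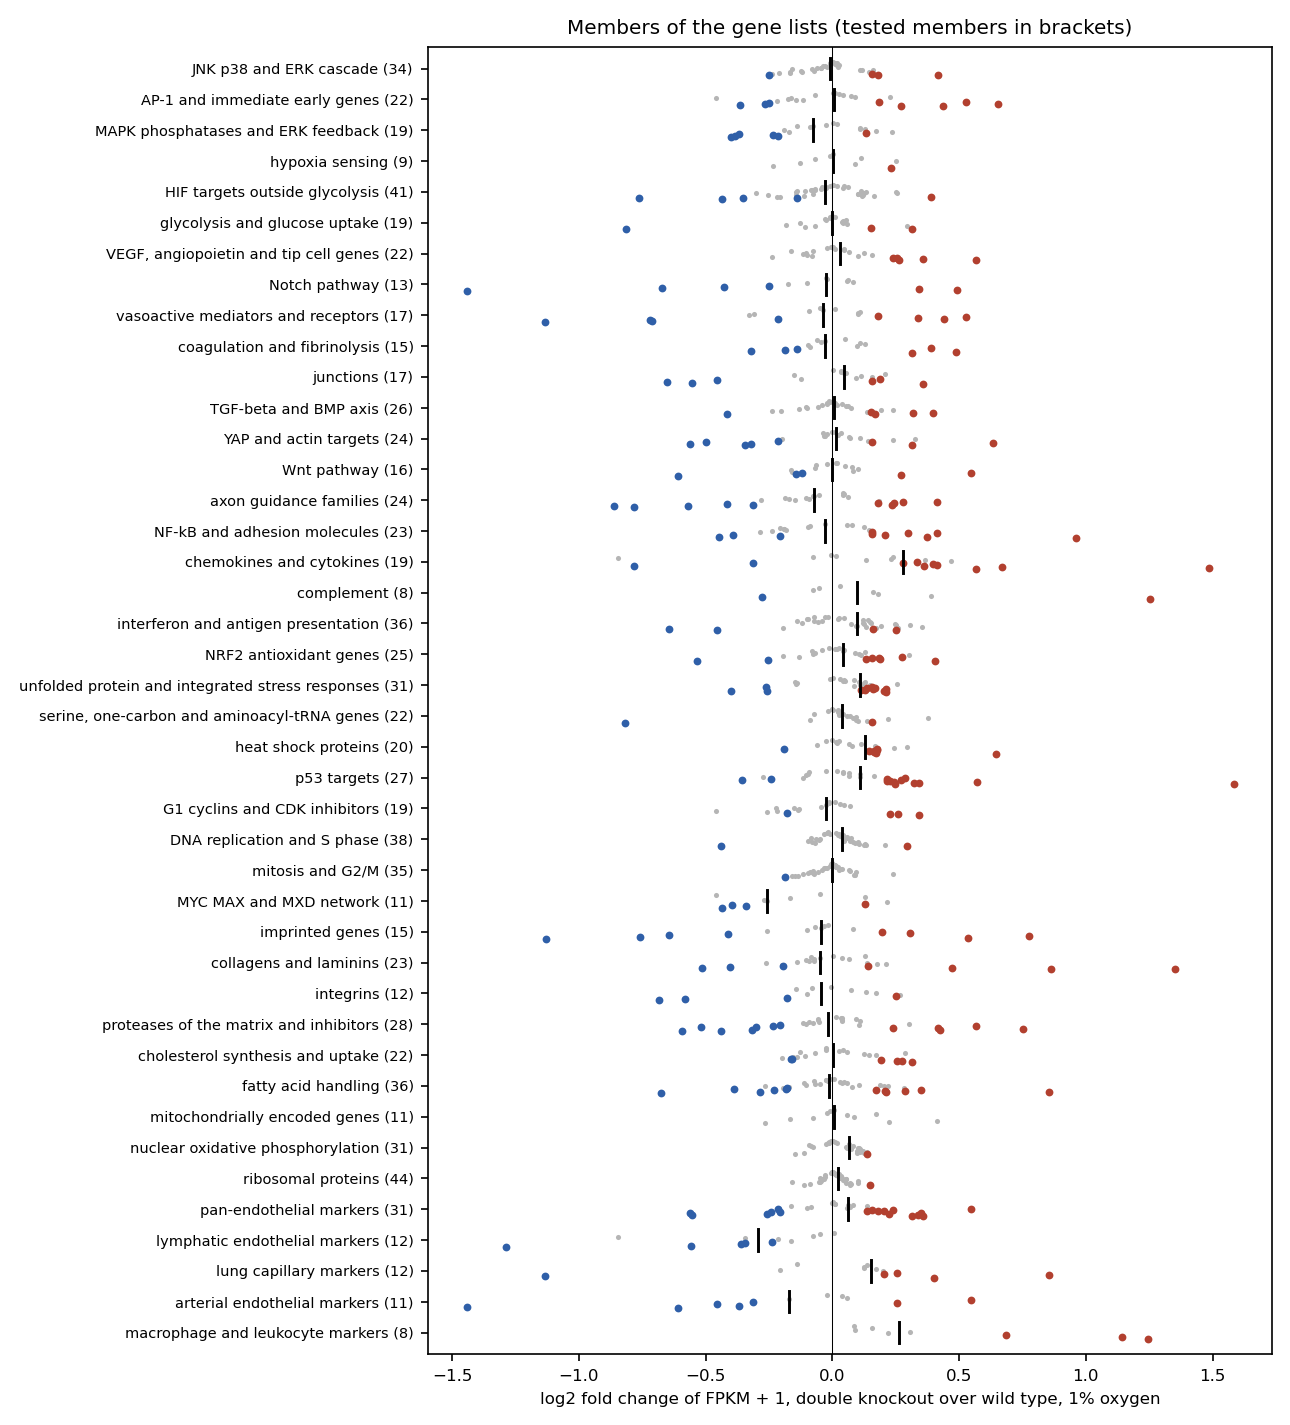
Log2 fold changes of FPKM + 1, DKO over WT at 1% oxygen, for the tested members of each list with at least 8 of them. Each point is a gene (red called higher, blue called lower, grey not called), the black line is the list's median and the number of tested members stands in brackets. Chemokines and cytokines have a median of 0.28 and lymphatic endothelial markers one of -0.29.

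Oxygen sensing genes and HIF targets were called at 11.1% and 12.2%, beside 16.1% of all genes. Hif1a, the alpha subunit of HIF1, rose slightly, with 164, 163 and 155 FPKM in DKO hypoxia libraries, against 146, 138 and 127 FPKM in WT hypoxia libraries (log2 fold change 0.23, SE 0.0465, limma adjusted p = 0.0063), and the other 8 tested sensing genes did not pass. Of 41 tested HIF targets outside glycolysis, 4 fell, 1 rose and 36 did not pass, with a median of -0.03. The higher count was 0 without DKO library 1, DKO library 3 or WT library 3 and 2 without WT library 1 or WT library 2. Vegfa, the main endothelial growth factor, was at 10.3 ± 0.969 FPKM in DKO and 10.1 ± 2.07 FPKM in WT (log2 fold change 0.04, limma adjusted p = 0.895). Bnip3, a mitophagy receptor, was at 105 ± 7.48 FPKM in DKO and 111 ± 3.52 FPKM in WT (log2 fold change -0.08, limma adjusted p = 0.435). Neither a rise nor a fall of these was called.

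The HIF targets that fell included regulators of transcription and growth. Bhlhe40, a circadian and hypoxia-induced repressor, had 9.61, 8.92 and 5.9 FPKM in DKO, against 15, 16.5 and 11.7 FPKM in WT (log2 fold change -0.76, SE 0.152, limma adjusted p = 0.00563). Mxi1, an antagonist of MYC, had 9.95, 10.7 and 9.11 FPKM in DKO, against 14, 14.7 and 12.6 FPKM in WT (log2 fold change -0.44, SE 0.0693, limma adjusted p = 0.00137). Ndrg1, a stress-induced growth suppressor, had 86.7, 98.3 and 83.2 FPKM in DKO, against 108, 122 and 112 FPKM in WT (log2 fold change -0.35, SE 0.0638, limma adjusted p = 0.0032). Bhlhe40 had the largest fall of these 3. Anxa2, a calcium-dependent membrane protein that binds plasminogen activator, had 1366, 1349 and 1369 FPKM in DKO, against 1488, 1478 and 1538 FPKM in WT (log2 fold change -0.14, SE 0.0323, limma adjusted p = 0.0121). In each of these the DKO and WT libraries stood apart. Hilpda, a lipid droplet gene induced by HIF, was at 30.9 ± 4.78 FPKM in DKO and 49.6 ± 3.54 FPKM in WT (log2 fold change -0.68, SE 0.102, limma adjusted p = 0.000991).

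Of 19 tested glycolysis genes, 2 rose, 1 fell and 16 did not pass (15.8% called, beside 16.1% of all genes), with a median of -0.00. The lower one was Hk2. Hk2, the inducible hexokinase that starts glycolysis, had 11.2, 10.9 and 9.28 FPKM in DKO hypoxia libraries, against 18.9, 21.9 and 16.9 FPKM in WT hypoxia libraries. The highest DKO value was below the lowest WT value (log2 fold change -0.81, SE 0.099, limma adjusted p = 0.000238). Hk2 was also lower in normoxia, at 3.15 ± 0.191 FPKM in DKO and 4.49 ± 0.507 FPKM in WT (limma log2 fold change -0.40, limma adjusted p = 0.0279). Slc16a1, a monocarboxylate transporter, rose, with 15.9, 15.2 and 15.4 FPKM in DKO, against 12.5, 11.6 and 12.8 FPKM in WT (log2 fold change 0.31, SE 0.0521, limma adjusted p = 0.00185). Pkm, pyruvate kinase, rose by 0.15 (limma adjusted p = 0.0114), a call that ended without DKO library 1 or without WT library 2 (highest adjusted p = 0.0527). Among the 16 that did not pass were Ldha at 701 ± 21.7 FPKM in DKO and 713 ± 21.3 FPKM in WT (log2 fold change -0.02, limma adjusted p = 0.745) and Slc2a1, the glucose transporter GLUT1, at 113 ± 5.17 FPKM in DKO and 110.0 ± 4 FPKM in WT (log2 fold change 0.04, limma adjusted p = 0.565).

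The promoters of 4 of these genes are shown. Hk2 had the largest called change among glycolysis genes, Dusp5 among the phosphatases and Lcn2 among chemokines and cytokines. Kcnj2 had the largest positive called difference between oxygen levels outside the targeted genes. Each is 250 bases before to 50 after the start, from RefSeq on build GRCm38.p6, written 5′ to 3′ on the gene's strand. Capitals mark ACGTG or GCGTG on either strand, the core letters that HIF can bind.
Hk2: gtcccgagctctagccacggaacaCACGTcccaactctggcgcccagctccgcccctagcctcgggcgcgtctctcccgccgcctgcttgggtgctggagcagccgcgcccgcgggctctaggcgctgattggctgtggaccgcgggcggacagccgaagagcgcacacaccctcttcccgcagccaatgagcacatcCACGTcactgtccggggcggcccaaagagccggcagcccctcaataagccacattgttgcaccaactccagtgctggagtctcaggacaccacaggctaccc
Dusp5: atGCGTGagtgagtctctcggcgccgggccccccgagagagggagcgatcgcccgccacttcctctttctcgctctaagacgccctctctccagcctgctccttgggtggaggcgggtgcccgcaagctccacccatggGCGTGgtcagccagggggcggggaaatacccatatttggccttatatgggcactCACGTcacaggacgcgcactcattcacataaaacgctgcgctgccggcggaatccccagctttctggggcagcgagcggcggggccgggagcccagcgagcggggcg
Kcnj2: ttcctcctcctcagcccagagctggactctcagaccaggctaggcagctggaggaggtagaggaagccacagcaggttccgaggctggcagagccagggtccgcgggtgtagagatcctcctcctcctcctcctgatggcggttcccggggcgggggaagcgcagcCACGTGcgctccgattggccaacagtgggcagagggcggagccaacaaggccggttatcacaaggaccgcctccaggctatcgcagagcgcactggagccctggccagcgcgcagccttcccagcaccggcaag
Lcn2: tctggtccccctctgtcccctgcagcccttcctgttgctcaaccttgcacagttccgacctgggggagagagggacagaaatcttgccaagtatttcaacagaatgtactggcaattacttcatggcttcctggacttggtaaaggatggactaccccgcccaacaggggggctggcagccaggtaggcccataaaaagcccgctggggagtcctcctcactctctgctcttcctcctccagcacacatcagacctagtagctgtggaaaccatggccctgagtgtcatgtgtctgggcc
The Hk2 window is chr6:82774405-82774704 (minus strand) with 2 matches, and that of Dusp5 is chr19:53528895-53529194 (plus strand) with 3. That of Kcnj2 is chr11:111065914-111066213 (plus strand), with 2 matches that overlap each other. The Lcn2 window, chr2:32387690-32387989 (minus strand), holds none, and none of the 4 holds TGANTCA, the letters of the AP-1 site. A match is a description of the letters and not a site.

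Windows were at hand for 8477 tested genes. ACGTG or GCGTG occurred in 470 of 656 genes called higher (71.65%), in 465 of 711 called lower (65.4%) and in 5917 of all 8477 (69.8%). TGANTCA occurred in 43 of the higher genes (6.555%), in 48 of the lower genes (6.751%) and in 501 of all (5.91%). These shares are descriptions and were not tested.

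Among vessel growth genes, several receptors and secreted factors rose. Of 22 tested VEGF, angiopoietin and tip cell genes, 5 rose and 17 did not pass, with a median of 0.03 (22.7% called, beside 16.1% of all genes). Cxcr4, the chemokine receptor of tip cells, had 276, 287 and 288 FPKM in DKO hypoxia libraries, against 203, 194 and 178 FPKM in WT hypoxia libraries, with no overlap (log2 fold change 0.57, SE 0.0482, limma adjusted p = 1.95e-05). Esm1, a tip cell proteoglycan, was at 556 ± 40.6 FPKM in DKO and 433 ± 23.2 FPKM in WT (log2 fold change 0.36, SE 0.066, limma adjusted p = 0.00355). Pgf, placental growth factor, was at 342 ± 7.15 FPKM in DKO and 285 ± 10.7 FPKM in WT (log2 fold change 0.26, SE 0.0321, limma adjusted p = 0.000248). Kdr, the main VEGF receptor, was at 62.6 ± 0.475 FPKM in DKO and 67.1 ± 2.4 FPKM in WT (log2 fold change -0.10, limma adjusted p = 0.206). Without DKO library 1, DKO library 2, WT library 1 or WT library 3, 3 of the genes were called higher.

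Notch genes moved apart from each other. Of 13 tested, 4 fell, 2 rose and 7 did not pass, with a median of -0.02 (46.2% called, beside 16.1% of all genes). Besides Hey1, Lfng, a Fringe enzyme that modifies Notch, fell, with 1.23, 1.31 and 1.29 FPKM in DKO, against 2.07, 2.54 and 3.38 FPKM in WT (log2 fold change -0.67, SE 0.117, limma adjusted p = 0.0026). Notch2 fell as well, at 4.21 ± 0.0653 FPKM in DKO and 6 ± 0.492 FPKM in WT (log2 fold change -0.43, SE 0.0746, limma adjusted p = 0.0026). In contrast Mfng, another Fringe enzyme, had 22.8, 25 and 24.5 FPKM in DKO, against 16.1, 17.2 and 17.3 FPKM in WT (log2 fold change 0.49, SE 0.057, limma adjusted p = 0.000172), and Notch4, the endothelial Notch receptor, had 19.9, 20.3 and 20.3 FPKM in DKO, against 15.8, 15.6 and 15.8 FPKM in WT (log2 fold change 0.34, SE 0.0524, limma adjusted p = 0.00111). Both higher genes had all DKO libraries above all WT libraries.

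Vasoactive genes were divided. Of 17 tested, 4 rose and 4 fell, with a median of -0.04 (47.1% called, beside 16.1% of all genes). Ramp3, a subunit of adrenomedullin receptors, had 5.53, 5.67 and 4.97 FPKM in DKO, against 9.85, 9.65 and 8.87 FPKM in WT (log2 fold change -0.71, SE 0.0799, limma adjusted p = 0.000143). Gucy1b3, a subunit of the nitric oxide receptor guanylyl cyclase, had 0.947, 0.808 and 0.553 FPKM in DKO, against 2.23, 2.03 and 1.48 FPKM in WT (log2 fold change -0.72, SE 0.121, limma adjusted p = 0.00204). With Ednrb, these 3 were the lower members named. Arg2, an arginase that competes for the substrate of nitric oxide synthase, rose, with 1.46, 1.99 and 1.65 FPKM in DKO, against 0.995, 0.987 and 0.963 FPKM in WT (log2 fold change 0.44, SE 0.0914, limma adjusted p = 0.0073). Only 2 members of the list were called higher without DKO library 1, WT library 2 or WT library 3.

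Clotting genes also went both ways. Of 15 tested, 3 rose, 3 fell and 9 did not pass, whereas 16.1% of all genes were called. Serpine2, an inhibitor of thrombin, was at 216 ± 2.57 FPKM in DKO and 174 ± 6.43 FPKM in WT (log2 fold change 0.31, SE 0.0331, limma adjusted p = 9.00e-05), and Tfpi2, an inhibitor of serine proteases, at 194 ± 8.15 FPKM in DKO and 138 ± 9.71 FPKM in WT (log2 fold change 0.49, SE 0.0677, limma adjusted p = 0.00058). Thbd, the anticoagulant receptor thrombomodulin and a known target of KLF2, was lower at 28.5 ± 0.859 FPKM in DKO and 35.9 ± 0.889 FPKM in WT (log2 fold change -0.32, SE 0.0468, limma adjusted p = 0.000775). Plau, urokinase, was lower at 1037 ± 28.6 FPKM in DKO and 1182 ± 37.1 FPKM in WT (log2 fold change -0.19, SE 0.0371, limma adjusted p = 0.00531).

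Junction proteins differed by member. Of 17 tested, 3 rose and 3 fell (35.3% called, beside 16.1% of all genes), with 1 or 2 called higher when any 1 library was left out. Cldn5, the claudin of endothelial tight junctions, had 200.1, 215 and 184 FPKM in DKO hypoxia libraries, against 261, 302 and 317 FPKM in WT hypoxia libraries, with no overlap (log2 fold change -0.55, SE 0.0805, limma adjusted p = 0.000785). Cdh2, neural cadherin, was at 2.58 ± 0.0766 FPKM in DKO and 4.67 ± 0.801 FPKM in WT (log2 fold change -0.65, SE 0.0981, limma adjusted p = 0.000937). Esam, an endothelial adhesion molecule, rose, at 139 ± 3.06 FPKM in DKO and 108 ± 2.9 FPKM in WT (log2 fold change 0.36, SE 0.0335, limma adjusted p = 3.78e-05). The call of Pecam1 (log2 fold change 0.16, limma adjusted p = 0.0134) ended without WT library 3 and under quantile normalization (highest adjusted p = 0.0976).

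Axon guidance families, many of which steer vessels, had 5 higher and 5 lower of 24 tested members and a median of -0.07. The share called was 41.7%, beside 16.1% of all genes. Sema3d, a secreted semaphorin, fell, at 3.09 ± 0.564 FPKM in DKO and 5.99 ± 0.389 FPKM in WT (log2 fold change -0.78, SE 0.0947, limma adjusted p = 0.000234). Sema4c was at 10.5 ± 0.808 FPKM in DKO and 16.2 ± 2.06 FPKM in WT (log2 fold change -0.57, SE 0.0749, limma adjusted p = 0.000403), and Ntn1, netrin 1, had 1.59, 1.71 and 1.43 FPKM in DKO, against 3.65, 4.61 and 2.9 FPKM in WT (log2 fold change -0.86, SE 0.12, limma adjusted p = 0.000581). Epha2, an ephrin receptor, rose, at 78.4 ± 2.46 FPKM in DKO and 66.4 ± 2.02 FPKM in WT (log2 fold change 0.23, SE 0.0344, limma adjusted p = 0.000809).

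Of 19 tested chemokines and cytokines, 8 rose, 2 fell and 9 did not pass (52.6% called, beside 16.1% of all genes), with a median of 0.28. With any 1 library left out 6 to 8 were called higher, and the lower count was 1 without DKO library 1, DKO library 2, WT library 1 or WT library 2. Besides Lcn2 and Cxcr4, Tslp, an epithelial and stromal cytokine, had 4.97, 4.09 and 4.86 FPKM in DKO, against 2.58, 2.5 and 2.54 FPKM in WT (log2 fold change 0.67, SE 0.087, limma adjusted p = 0.000378). Il6st, the shared receptor subunit gp130, was at 82 ± 5.92 FPKM in DKO and 63.6 ± 2.97 FPKM in WT (log2 fold change 0.36, SE 0.0518, limma adjusted p = 0.000726). The summed leukocyte markers given above, most of whose gap is Lyz2, were also higher in DKO.

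NF-kB and adhesion genes included 7 higher and 3 lower of 23 tested (43.5% called, beside 16.1% of all genes). Their median was -0.03, and 3 were higher without DKO library 1. Icam1, which binds leukocyte integrins, had 54.7, 50.6 and 51.8 FPKM in DKO, against 42.1, 39.3 and 39.4 FPKM in WT (log2 fold change 0.37, SE 0.0409, limma adjusted p = 0.000122). Bst1, an ectoenzyme also known as CD157, had 6.56, 6.82 and 7.6 FPKM in DKO, against 3.37, 3.18 and 2.78 FPKM in WT (log2 fold change 0.96, SE 0.0791, limma adjusted p = 1.57e-05). Icam2, a resting adhesion molecule, fell, at 221 ± 6.75 FPKM in DKO and 255 ± 6.98 FPKM in WT (log2 fold change -0.21, SE 0.0401, limma adjusted p = 0.00499), and Traf1, an adaptor induced by NF-kB, also fell, at 4.89 ± 0.358 FPKM in DKO and 7.03 ± 0.617 FPKM in WT (log2 fold change -0.45, SE 0.0731, limma adjusted p = 0.00168). Vcam1 was at 12.7, 9.48 and 11.4 FPKM in DKO, against 7.21, 7.63 and 9.57 FPKM in WT (log2 fold change 0.41, SE 0.105, limma adjusted p = 0.0196), a call that ended in 5 of 16 alternatives, among them without DKO library 1, DKO library 3, WT library 1 or WT library 2 (highest adjusted p = 0.0811). Interferon and antigen presentation genes had 2 higher and 2 lower of 36 tested (11.1%), beside 16.1% of all genes. The higher count was 4 without DKO library 2, 1 without WT library 2 and 0 without any other library, and the lower count was 0 without WT library 2, 2 without DKO library 3 and 1 without any other library. Bst2, an antiviral tether, was at 1396 ± 126 FPKM in DKO and 1168 ± 20.8 FPKM in WT (log2 fold change 0.25, limma adjusted p = 0.0223), and H2-T23, a nonclassical class I gene, at 61 ± 3.84 FPKM in DKO and 84.2 ± 6.97 FPKM in WT (log2 fold change -0.46, limma adjusted p = 0.012). The call of H2-T23 ended without WT library 2, and that of Bst2 ended in 7 of 16 alternatives, including without any 1 library other than DKO library 2 (highest adjusted p = 0.0514 and 0.0848).

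Of 27 tested p53 targets, 11 rose, 2 fell and 14 did not pass (48.1% called, beside 16.1% of all genes), with a median of 0.11. Whichever library was left out, 10 were called higher; the lower count was 3 without DKO library 2, 2 without WT library 1 and 1 without any other. Besides Clca2, a target described in human cells, Cdkn1a, the cyclin-dependent kinase inhibitor p21, had 100.4, 95.9 and 99.3 FPKM in DKO hypoxia libraries, against 77.9, 79.1 and 75.9 FPKM in WT hypoxia libraries, with no overlap (log2 fold change 0.34, SE 0.0434, limma adjusted p = 0.000332). Ccng1, cyclin G1, had 225, 228 and 230.3 FPKM in DKO, against 194, 189.7 and 191 FPKM in WT (log2 fold change 0.25, SE 0.0253, limma adjusted p = 7.24e-05). Eda2r, a death receptor of the TNF family, had 106, 98.7 and 103 FPKM in DKO, against 81.6, 80.1 and 82.8 FPKM in WT (log2 fold change 0.32, SE 0.0375, limma adjusted p = 0.000172). In all 3 genes the groups stood apart. Phlda3, an inhibitor of AKT, was at 152 ± 2.51 FPKM in DKO and 129 ± 3.18 FPKM in WT (log2 fold change 0.23, SE 0.035, limma adjusted p = 0.0011). Mdm2, the ubiquitin ligase of p53, was at 170.1 ± 2.56 FPKM in DKO and 144 ± 5.1 FPKM in WT (log2 fold change 0.24, SE 0.0312, limma adjusted p = 0.000346). Pmaip1, the BH3-only protein Noxa, was at 12.5 ± 0.64 FPKM in DKO and 8.1 ± 0.317 FPKM in WT (log2 fold change 0.57, SE 0.0813, limma adjusted p = 0.000663).

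Protein folding genes also rose in part. Of 31 tested stress response genes, of the unfolded protein and integrated types, 9 rose and 3 fell, with a median of 0.11. The share called was 38.7%, beside 16.1% of all genes. The higher count was 3 without DKO library 3, 4 without WT library 2, 5 without DKO library 2 and 6 without DKO library 1. Hspa5, the chaperone BiP of the endoplasmic reticulum, had 519, 502 and 501 FPKM in DKO, against 444, 431 and 440.0 FPKM in WT (log2 fold change 0.21, SE 0.0356, limma adjusted p = 0.0021). Manf, a secreted stress factor, was at 118 ± 3.83 FPKM in DKO and 103 ± 3.59 FPKM in WT (log2 fold change 0.20, SE 0.039, limma adjusted p = 0.00468). The 3 lower members included Chac1, which degrades glutathione, with 3.88, 4.05 and 3.56 FPKM in DKO, against 6.24, 5.24 and 4.73 FPKM in WT (log2 fold change -0.40, SE 0.0818, limma adjusted p = 0.00673), and Trib3, a pseudokinase, with 83.2, 91.7 and 86.2 FPKM in DKO, against 103, 101 and 108 FPKM in WT (log2 fold change -0.26, SE 0.0455, limma adjusted p = 0.00275). Of 22 tested serine, one-carbon and aminoacyl-tRNA genes, 1 rose, 1 fell and 20 did not pass (9.09% called, beside 16.1% of all genes), with a median of 0.04. The lower one, Phgdh, the first enzyme of serine synthesis, had 42.7, 40.4 and 38.1 FPKM in DKO hypoxia libraries, against 73.2, 70.6 and 71.7 FPKM in WT hypoxia libraries, and its groups stood far apart (log2 fold change -0.82, SE 0.0504, limma adjusted p = 1.37e-06).

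Heat shock proteins had 7 higher and 1 lower of 20 tested and a median of 0.13. The other 12 did not pass, whereas 16.1% of all genes were called. With 1 library left out 5 to 8 were called higher, and the lower call ended unless that library was WT library 1. Hspa9, the mitochondrial chaperone mortalin, was at 288 ± 0.479 FPKM in DKO and 256 ± 2.77 FPKM in WT (log2 fold change 0.17, SE 0.032, limma adjusted p = 0.00397). Dnaja1, a partner of HSP70, was at 301 ± 4.94 FPKM in DKO and 269 ± 0.555 FPKM in WT (log2 fold change 0.16, SE 0.0323, limma adjusted p = 0.00538). Hspa1a had 18.9, 17.7 and 16.3 FPKM in DKO, against 13, 10.2 and 9.73 FPKM in WT (log2 fold change 0.65, SE 0.0885, limma adjusted p = 0.000533), while its near-identical copy Hspa1b had 219, 213 and 193 FPKM in DKO, against 208, 172 and 151 FPKM in WT (log2 fold change 0.24, SE 0.0936, limma adjusted p = 0.105). Reads of the pair cannot be told apart with certainty, so the split between them is uncertain.

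Antioxidant genes controlled by NRF2 were mixed, with 6 higher and 2 lower of 25 tested and a median of 0.04. The share called was 32.0%, beside 16.1% of all genes. The higher count was 2 without DKO library 1, DKO library 3 or WT library 3, and 3 without DKO library 2 or WT library 2. Nqo1, a quinone reductase, fell, with 119, 124 and 119 FPKM in DKO hypoxia libraries, against 175, 178 and 173 FPKM in WT hypoxia libraries (log2 fold change -0.53, SE 0.0319, limma adjusted p = 1.14e-06). Srxn1, sulfiredoxin, fell, at 83.5 ± 5.47 FPKM in DKO and 99.6 ± 4.01 FPKM in WT (log2 fold change -0.25, SE 0.0462, limma adjusted p = 0.00333). Gstm2, a glutathione transferase, rose, with 25.2, 24.7 and 25.5 FPKM in DKO, against 18.6, 19.1 and 18.6 FPKM in WT (log2 fold change 0.40, SE 0.0449, limma adjusted p = 0.000129).

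Cell cycle genes were called at 2.86% (mitosis) and 5.26% (replication) in hypoxia, beside 16.1% of all genes. Of 35 tested mitosis genes 1 fell (Ube2c), with a median of -0.00, and of 38 replication genes 1 rose (Pole) and 1 fell (Pold1). Without DKO library 2, 3 replication genes and 1 mitosis gene were called higher. At unadjusted p under 0.05 the counts were 3 and 6, beside 3341 of all 11378 genes. Ube2c, a ubiquitin-conjugating enzyme of mitotic exit, was at 17 ± 1.09 FPKM in DKO and 19.5 ± 1.4 FPKM in WT (log2 fold change -0.19, limma adjusted p = 0.0397). Its call ended in 9 of 16 alternatives, including without DKO library 1, DKO library 3, WT library 2 or WT library 3 (highest adjusted p = 0.153). In normoxia 21 of the 35 mitosis genes were called lower in DKO, beside 492 of all 11378 genes (4.32%), with a median of -0.28. Aurkb, the kinase of the chromosomal passenger complex, was at 9.21 ± 0.746 FPKM in DKO and 10.4 ± 0.328 FPKM in WT in hypoxia (log2 fold change -0.16, limma adjusted p = 0.0939) and 10.5 ± 0.598 FPKM in DKO and 13.4 ± 0.383 FPKM in WT in normoxia (limma log2 fold change -0.33, limma adjusted p = 0.005). Prc1, which bundles the spindle midzone, was at 27.2 ± 0.762 FPKM in DKO and 28.6 ± 0.919 FPKM in WT in hypoxia (log2 fold change -0.07, limma adjusted p = 0.334) and 23.4 ± 1.47 FPKM in DKO and 30.2 ± 0.576 FPKM in WT in normoxia (limma log2 fold change -0.36, limma adjusted p = 0.000552). The limma test of the difference between oxygen levels called none of the 35 mitosis genes, although 24 had an unadjusted p under 0.05 (Prc1: difference 0.29, SE 0.0662, limma adjusted p = 0.0844; Cdc20: difference 0.25, SE 0.0584, limma adjusted p = 0.0908), so a difference between the oxygen levels was not established by the adjusted test. Among all 11378 genes that test called 22 (0.193%), and 1820 had an unadjusted p under 0.05.

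The MYC, MAX and MXD network had 3 lower and 1 higher of 11 tested (36.4% called, beside 16.1% of all genes), with a median of -0.26. The lower count was 5 without WT library 3, and the higher count was 0 without DKO library 3 or any 1 WT library. Mycn, a MYC paralog, was at 1.35 ± 0.252 FPKM in DKO and 2.08 ± 0.205 FPKM in WT (log2 fold change -0.39, SE 0.0913, limma adjusted p = 0.0128), and Mxd3, a MAX partner, at 4.3 ± 0.553 FPKM in DKO and 5.7 ± 0.255 FPKM in WT (log2 fold change -0.34, SE 0.0744, limma adjusted p = 0.00927). Mxi1, given above, is the other lower member. Imprinted genes were called in 8 of 15 tested (53.3%, beside 16.1% of all genes), 4 each way, and the higher count was 2 without DKO library 2 or WT library 3. Ndn, the growth suppressor necdin, rose, with 101, 103 and 103 FPKM in DKO, against 71.2, 65.3 and 74.6 FPKM in WT (log2 fold change 0.54, SE 0.0497, limma adjusted p = 3.54e-05). Its DKO libraries lay above all its WT libraries. Peg3, a paternally expressed zinc finger gene, fell, with 2.37, 2.28 and 2.18 FPKM in DKO, against 4.21, 4.76 and 4.72 FPKM in WT (log2 fold change -0.76, SE 0.0823, limma adjusted p = 0.000111). Dcn, the matrix proteoglycan decorin, rose at low levels, with 3.2, 2.73 and 3.11 FPKM in DKO, against 1.5, 1.38 and 1.16 FPKM in WT (log2 fold change 0.77, SE 0.088, limma adjusted p = 0.000154). It is also 1 of the fibroblast markers given below.

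Matrix genes went both ways. Of 23 tested collagens, laminins and related genes, 4 rose and 3 fell (30.4% called, beside 16.1% of all genes). Besides Col15a1, Bgn, the proteoglycan biglycan, had 1.92, 1.63 and 1.99 FPKM in DKO, against 0.59, 0.542 and 0.554 FPKM in WT (log2 fold change 0.86, SE 0.0872, limma adjusted p = 6.99e-05). The summed fibroblast markers, given below, were higher in DKO as well, and Dcn, given above, made up most of that gap. Fbn1, fibrillin 1, fell, with 4.07, 4.11 and 3.71 FPKM in DKO, against 5.97, 6.46 and 5.85 FPKM in WT (log2 fold change -0.52, SE 0.0767, limma adjusted p = 0.00089). Neither pair of groups overlapped. Itga9, an integrin of lymphatic valves, fell, with 7.28, 7.62 and 5.92 FPKM in DKO, against 12, 12.2 and 11 FPKM in WT (log2 fold change -0.68, SE 0.0911, limma adjusted p = 0.000434), as did Itgb4, an integrin of laminin adhesion, at 4.15 ± 0.628 FPKM in DKO and 6.67 ± 0.173 FPKM in WT (log2 fold change -0.58, SE 0.0875, limma adjusted p = 0.000958). Of 28 tested matrix proteases and inhibitors, 5 rose and 7 fell (42.9% called, beside 16.1% of all genes). Timp3, a matrix-bound inhibitor of metalloproteases, was at 87 ± 3.45 FPKM in DKO and 118 ± 5.56 FPKM in WT (log2 fold change -0.44, SE 0.0466, limma adjusted p = 9.51e-05), and Timp2 at 107 ± 3.82 FPKM in DKO and 133 ± 6.64 FPKM in WT (log2 fold change -0.32, SE 0.0409, limma adjusted p = 0.000367). Adam8, a membrane metalloprotease, was at 5.61 ± 0.173 FPKM in DKO and 8.98 ± 0.501 FPKM in WT (log2 fold change -0.59, SE 0.06, limma adjusted p = 7.04e-05).

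Lipid genes had 6 higher and 6 lower of 36 tested for fatty acid handling and 4 higher and 2 lower of 22 for cholesterol. The shares called were 33.3% and 27.3%, beside 16.1% of all genes. Without WT library 2 the fatty acid counts were 3 higher and 3 lower; the lower count was also 3 without WT library 1 and was 2 without DKO library 3. The lower count for cholesterol was 0 or 1 with any 1 library left out other than DKO library 2. Gpihbp1, which anchors lipoprotein lipase to the capillary wall, had 17.7, 14.8 and 18.5 FPKM in DKO hypoxia libraries, against 7.87, 9.82 and 9.19 FPKM in WT hypoxia libraries, with no overlap (log2 fold change 0.85, SE 0.132, limma adjusted p = 0.00114). Fabp5, a fatty acid carrier, fell, at 661 ± 12 FPKM in DKO and 805 ± 13.9 FPKM in WT (log2 fold change -0.28, SE 0.0491, limma adjusted p = 0.00239). Insig1, a sterol sensor, was at 69.6 ± 1.41 FPKM in DKO and 55.8 ± 1.64 FPKM in WT (log2 fold change 0.31, SE 0.0434, limma adjusted p = 0.000554). Ribosomal protein genes were called in 1 of 44 tested members (Rpl18) and nuclear oxidative phosphorylation genes in 1 of 31 (2.27% and 3.23%, beside 16.1% of all genes). The higher count of the oxidative phosphorylation genes was 0 without any 1 DKO library or WT library 2. Rpl18 had a log2 fold change of 0.15 (limma adjusted p = 0.0243). Its call ended when DKO library 1, 2 or 3 or WT library 1 or 2 was left out (highest adjusted p = 0.0786). Limma called none of 11 mitochondrially encoded genes, and none had an unadjusted p under 0.05 (mt-Co1: 1237 ± 38.8 FPKM in DKO and 1309 ± 141 FPKM in WT).

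Vessel type markers were compared next. Of 12 tested lymphatic markers, 5 fell and 7 did not pass (41.7% called, beside 16.1% of all genes). Their median was -0.29, and 11 of the 12 fitted values were below 0. Lyve1, the hyaluronan receptor of lymphatics, had 266, 279 and 250.3 FPKM in DKO hypoxia libraries, against 404, 408 and 359 FPKM in WT hypoxia libraries, with no overlap (log2 fold change -0.56, SE 0.0686, limma adjusted p = 0.000262). Prox1, the transcription factor that defines lymphatic identity, had 28.7, 28 and 25.1 FPKM in DKO, against 34.7, 39.4 and 30.9 FPKM in WT (log2 fold change -0.34, SE 0.0872, limma adjusted p = 0.0195). Tbx1, a regulator of lymphatic growth, had 12.6, 16.7 and 13.4 FPKM in DKO, against 18.2, 19.3 and 17.8 FPKM in WT (log2 fold change -0.36, SE 0.0884, limma adjusted p = 0.0174). The count of lower markers was 2 without DKO library 3 or WT library 2, when the calls of Prox1 and Tbx1 ended (highest adjusted p = 0.0772 and 0.0717). The call of Tbx1 also ended without DKO library 1. Nts, given above, had the largest fall among the called lymphatic markers. The summed level of the 12 markers was 926 to 1007 FPKM in DKO and 1105 to 1232 FPKM in WT.

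Arterial markers had 5 lower and 2 higher of 11 tested, with a median of -0.17 (63.6% called, beside 16.1% of all genes). The higher count was 0 or 1 with any 1 library left out and the lower count 2 without WT library 2. Dkk2, a Wnt antagonist, had 21.2, 21.8 and 20.1 FPKM in DKO, against 34.6, 32.7 and 30.6 FPKM in WT (log2 fold change -0.61, SE 0.0619, limma adjusted p = 7.22e-05). Gja4, connexin 37, was at 0.871 ± 0.0595 FPKM in DKO and 1.58 ± 0.277 FPKM in WT (log2 fold change -0.46, SE 0.117, limma adjusted p = 0.0204), a call that ended without DKO library 3, WT library 2 or WT library 3 (highest adjusted p = 0.073). All 6 tested venous markers were called, beside 16.1% of all genes, 4 of them higher (2 without DKO library 1, WT library 1 or WT library 2), and 2 lower (1 without DKO library 2, DKO library 3, WT library 1 or WT library 2). Cpe, carboxypeptidase E, rose, at 565 ± 11.6 FPKM in DKO and 472 ± 2.94 FPKM in WT (log2 fold change 0.26, SE 0.0334, limma adjusted p = 0.000349), whereas Ephb4, the venous ephrin receptor, fell, at 54.5 ± 3.14 FPKM in DKO and 68 ± 2.73 FPKM in WT (log2 fold change -0.31, SE 0.0486, limma adjusted p = 0.00114).

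Lung capillary markers had 4 higher and 1 lower of 12 tested, with a median of 0.15 (41.7% called, beside 16.1% of all genes). The lower one was Ednrb, given above (log2 fold change -1.13, limma adjusted p = 8.09e-05). Cd93, an endothelial lectin receptor, had 243, 243 and 248 FPKM in DKO, against 177, 186 and 191 FPKM in WT (log2 fold change 0.40, SE 0.0372, limma adjusted p = 3.54e-05), and Gpihbp1 is another higher member. Among pan-endothelial markers 11 rose, 6 fell and 14 did not pass, with a median of 0.06 (54.8% called, beside 16.1% of all genes). Cldn5 and Icam2, given above, were among those that fell. Cd34, a sialomucin, was at 308 ± 3.44 FPKM in DKO and 248 ± 3.77 FPKM in WT (log2 fold change 0.31, SE 0.0308, limma adjusted p = 5.58e-05), and Fli1, an ETS factor, at 116 ± 4.73 FPKM in DKO and 92 ± 3.84 FPKM in WT (log2 fold change 0.34, SE 0.0387, limma adjusted p = 0.000164). The summed level of the pan-endothelial list was 7945 to 8146 FPKM in DKO and 7750 to 7881 FPKM in WT.

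Few markers of other lung cells were tested. Of 15 smooth muscle and pericyte markers 5 were tested, with 3 higher and 1 lower. Acta2, smooth muscle actin, had 6.22, 5.59 and 5.45 FPKM in DKO, against 3.92, 3.46 and 2.75 FPKM in WT (log2 fold change 0.63, SE 0.128, limma adjusted p = 0.00614), and Tagln had 25, 21.5 and 27 FPKM in DKO, against 41.5, 36.7 and 31.9 FPKM in WT (log2 fold change -0.56, SE 0.111, limma adjusted p = 0.00529). Of 18 epithelial markers 5 were tested, with Hopx, a homeodomain protein of alveolar cells, higher (log2 fold change 0.55, limma adjusted p = 0.0111) and Krt19, a keratin also on the mesothelial list, lower (log2 fold change -0.90, limma adjusted p = 0.000625). Krt19 was the only tested mesothelial marker of 8, and the sum of the list was 1.88 to 2.19 FPKM in DKO and 4.01 to 5.28 FPKM in WT. Of 19 fibroblast markers 3 were tested and 1, Dcn, was higher (33.3% called, beside 16.1% of all genes). The sum of the list was 7.61 to 8.59 FPKM in DKO and 5.74 to 6.65 FPKM in WT, with Dcn as most of the gap. Neither this sum nor the mesothelial one overlapped between the groups, and 35.8% of all single genes tested did not overlap either. The smooth muscle and pericyte sum did overlap, at 45.8 to 51.6 FPKM in DKO and 48.6 to 60.2 FPKM in WT. So did the epithelial sum, at 93.0 to 94.0 FPKM in DKO and 88.8 to 94.7 FPKM in WT. The part of these cell types in the other results was not tested.

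The group means in normoxia came from other libraries, but both oxygen levels shared 1 estimate of spread for each gene. The calls at the 2 oxygen levels are therefore not independent. Limma called 929 of 11378 genes in normoxia (8.16%), 437 higher (3.84%) and 492 lower (4.32%). Of these, 538 were called in the same direction in hypoxia, which is 29.4% of the hypoxia calls and 57.9% of the normoxia calls, and 5 were called in opposite directions. Of the 36 genes changed by over 1 in hypoxia, 31 were also called in normoxia. Across the 11378 genes, which are not independent, Pearson's r of the 2 fitted effects was 0.529 and Spearman's rho 0.362.

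The test of the difference between the effects called 22 genes (0.193%), 8 with a more positive and 14 with a more negative effect in hypoxia, while 1820 had an unadjusted p under 0.05. Kcnj2 rose in hypoxia as given above, whereas in normoxia it was at 1.35 ± 0.181 FPKM in DKO and 0.851 ± 0.0147 FPKM in WT (limma log2 fold change 0.34, limma adjusted p = 0.0171; difference 0.69, SE 0.108, limma adjusted p = 0.0347). Ackr3, a scavenging receptor for the chemokine CXCL12, had 0.616, 0.804 and 0.941 FPKM in DKO hypoxia libraries, against 2.03, 2.21 and 1.97 FPKM in WT hypoxia libraries. In normoxia Ackr3 was at 2.44 ± 0.562 FPKM in DKO and 1.94 ± 0.0163 FPKM in WT (limma log2 fold change 0.21, limma adjusted p = 0.315; difference -0.99, SE 0.161, limma adjusted p = 0.0354). Dusp5 was at 12.6 ± 0.611 FPKM in DKO and 11.9 ± 0.472 FPKM in WT in normoxia (limma log2 fold change 0.07, limma adjusted p = 0.468; difference -0.47, SE 0.0733, limma adjusted p = 0.0347). Etv4, an ETS factor induced by ERK, was at 20.3 ± 0.749 FPKM in DKO and 18.4 ± 0.149 FPKM in WT in hypoxia (log2 fold change 0.13, SE 0.0401, limma adjusted p = 0.0404) and at 14.1 ± 0.459 FPKM in DKO and 16.9 ± 0.202 FPKM in WT in normoxia (limma log2 fold change -0.25, limma adjusted p = 0.00268; difference 0.38, SE 0.0566, limma adjusted p = 0.0347). The hypoxia call of Etv4 ended in 7 of 16 alternatives, including without DKO library 1, DKO library 3 or any WT library (highest adjusted p = 0.135). Of the 11 differences examined under alternatives on summed genes, that of Map3k10 kept its call in all 21 of them. Each of the others lost it in at least 11, with a highest limma adjusted p of 0.111 to 0.133. Single transcripts were not part of this check.

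**Figure D4:**
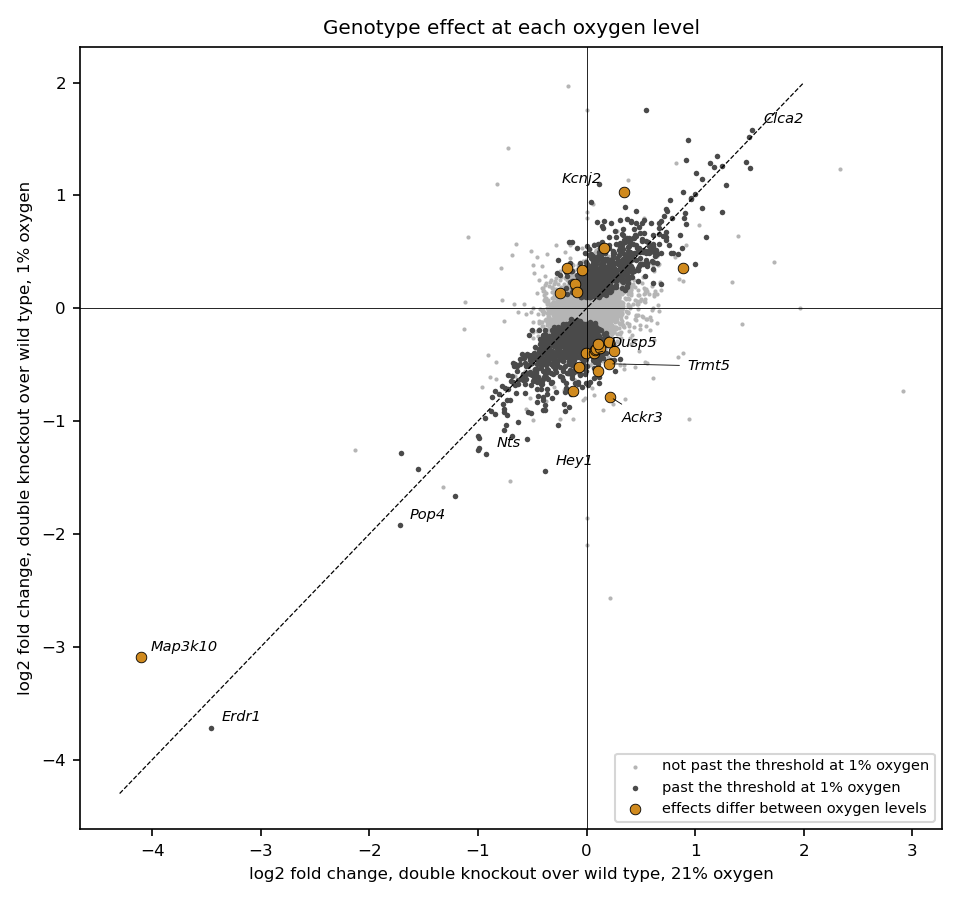
Log2 fold change of FPKM + 1, DKO over WT, at 21% oxygen (x axis) and 1% oxygen (y axis) for 11378 genes. Dark points were called at 1% oxygen, the 22 orange points were called in the test of the difference between oxygen levels, and the dashed line marks equal effects. Kcnj2 lies above that line (0.34 at 21% and 1.03 at 1% oxygen) and Ackr3 below it (0.21 and -0.78).

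A larger share of tested genes was called around Map3k10. On chromosome 7, which carries it, 192 of 821 tested genes were called (23.4%), against 12.4 to 17.7% on the other chromosomes. Within 5 Mb of Map3k10 44 of 136 were called (32.4%), from 5 to 10 Mb 22 of 60 (36.7%), and beyond 40 Mb 74 of 426 (17.4%). Blvrb lies 0.208 Mb from Map3k10, Mrps12 1.08 Mb, Zfp93 3.39 Mb and Pop4 10.6 Mb. Gmfg, a regulator of actin branching, lies 0.777 Mb away and had 346, 375 and 343 FPKM in DKO, against 167, 176 and 182 FPKM in WT (log2 fold change 1.01, SE 0.0653, limma adjusted p = 2.02e-06). Bcam, a laminin receptor 7.9 Mb away, had 37.3, 35.6 and 37 FPKM in DKO, against 16.3, 19.2 and 17 FPKM in WT (log2 fold change 1.03, SE 0.0549, limma adjusted p = 4.12e-07). Among the genes named above, H19, Igf2, Rassf10, Eps8l1, Lyve1, Peg3, Ndn, Coro1a, Adam8 and Rpl18 also lie on chromosome 7. Their distances are not given here, and a place on the chromosome does not by itself put them near Map3k10. For the genes near Map3k10 the loss of the kinases and sequence linked to the targeted allele cannot be told apart. As the strain background of the DKO mice is not stated, a difference of background cannot be told apart from the loss for any gene.

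No such density was seen within 5 Mb of Map3k11 on chromosome 19, where 19 of 171 genes were called (11.1%). From 10 to 20 Mb 6 of 31 were called (19.4%) and from 20 to 40 Mb 24 of 111 (21.6%). On the whole chromosome 63 of 397 were called (15.9%). Other leading genes lie elsewhere, such as Clca2 on chromosome 3, Nts on chromosome 10, Ednrb on chromosome 14, Hk2 on chromosome 6 and Hey1 on chromosome 3. Ide, a gene known to differ between C57BL/6J stocks, lies on chromosome 19, 31.6 Mb from Map3k11. It was at 17.7 ± 0.514 FPKM in DKO and 25.3 ± 0.942 FPKM in WT (log2 fold change -0.50, SE 0.0541, limma adjusted p = 0.000116). Nnt, which carries a deletion in C57BL/6J, was at 12 ± 0.669 FPKM in DKO and 12.2 ± 0.279 FPKM in WT (log2 fold change -0.03, limma adjusted p = 0.755).

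**Figure D5:**
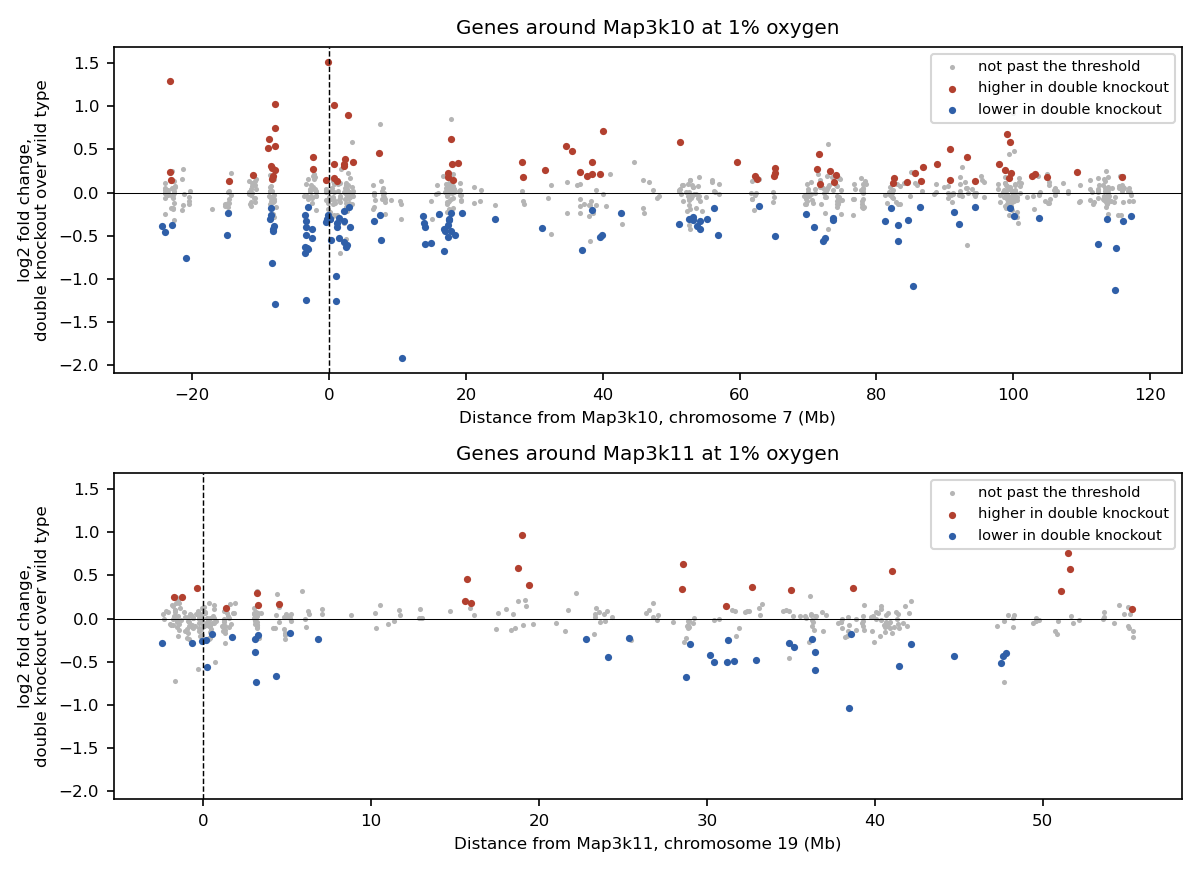
Log2 fold change of FPKM + 1, DKO over WT at 1% oxygen, of tested genes by distance in Mb from Map3k10 on chromosome 7 and from Map3k11 on chromosome 19; the targeted genes themselves are not drawn. Red and blue points were called higher and lower in DKO. Within 5 Mb, 32.4% of genes around Map3k10 and 11.1% around Map3k11 were called.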

How the data were processed

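RNA of 12 libraries of mouse lung endothelial cells was sequenced, and the authors deposited FPKM values for 52655 transcripts with gene identifiers and symbols. TopHat2 was the aligner, per the submitters' processing notes. Its version, the genome build and the quantification tool were not given in the sources used here. Without a stated strand, overlapping and antisense genes cannot be told apart. The deposited table holds no counts, so depth was estimated from the steps of low values, with 88.3 to 90.2% of them within 0.1 of a whole fragment, and no count model was run.

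Transcripts were summed per gene. Genes with a mean of 1 FPKM were fitted on log2(FPKM + 1) to all 12 libraries, 1 coefficient per group, in limma 3.58.1 (R 4.3.3) with a variance trend and 8 residual degrees of freedom. The model gave the genotype effect at each oxygen level and their difference. The targeted genes were also compared by exact permutation tests in scipy 1.17.1. Positions came from GENCODE M21 (GRCm38) and promoter windows from RefSeq. The fit was tested on simulated data. Same-numbered libraries of different groups did not deviate together (correlations -0.084 to 0.167), so numbers were not treated as pairs.

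The comparison and the 50 gene lists were chosen with earlier results of these data known. The naming rule took the targeted genes, the 15 largest called changes each way without overlap between groups, up to 4 called members per list by smallest p (otherwise the 2 with the highest mean), and the 5 largest called differences each way; predicted gene models were passed over. Some genes, among them ones chosen by the rule, are not reported here. The rule named 177 genes, of which those described are a part. Chosen after their values were seen were Klf2, Notch2, Igf2, Vegfa, Bnip3, Slc2a1, Ldha, Jun, Gmfg, Bcam, Cdh5, Kdr, Vcam1, Hspa1b, Mapk8, Map2k4, Map2k7, Aurkb, Prc1, Cdc20, Phlda3, Pmaip1, Mdm2, Map3k9, Map3k12, Zak, Vwf and Nnt. Alternatives were a pseudocount of 0.1, no filter, quantile normalization, equal medians, a minimum mean of 5 FPKM, no variance trend, array weights, a replicate block, the 6 hypoxia libraries alone, single transcripts, removal of a GC and length trend and each library left out. For normoxia and the difference, the GC alternative was added after the data were seen.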

Additional observations from a re-analysis of the deposited data

Results flagged for a closer look

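Limma's test of the difference itself (hypoxia effect minus normoxia effect, on the log2 scale, adjusted over all genes) called 11 named genes. Only Map3k10 kept its call in all 21 alternatives on summed genes, and each of the others lost it in at least 11. The genotype effect was more positive in hypoxia for Map3k10 (difference 1.02, SE 0.0995, limma adjusted p = 0.00375), Kcnj2 (difference 0.69, SE 0.108, limma adjusted p = 0.0347), Arhgap20, a GTPase-activating protein (difference 0.54, SE 0.088, limma adjusted p = 0.0354), Tmem97, the sigma-2 receptor (difference 0.39, SE 0.0667, limma adjusted p = 0.0492), and Etv4 (difference 0.38, SE 0.0566, limma adjusted p = 0.0347). It was more negative in hypoxia for Ackr3 (difference -0.99, SE 0.161, limma adjusted p = 0.0354), Trmt5, a tRNA methyltransferase (difference -0.69, SE 0.102, limma adjusted p = 0.0347), Zfp760, a zinc finger gene (difference -0.66, SE 0.107, limma adjusted p = 0.0354), Clec2d, a lectin ligand of natural killer cell receptors (difference -0.63, SE 0.101, limma adjusted p = 0.0354), Lrrn4cl (difference -0.60, SE 0.0896, limma adjusted p = 0.0347) and Dusp5 (difference -0.47, SE 0.0733, limma adjusted p = 0.0347).

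Trmt5, Zfp760, Clec2d and Arhgap20 are given with their values. Trmt5 had 2.9, 2.92 and 3.09 FPKM in DKO hypoxia libraries, against 4.81, 4.8 and 4.15 FPKM in WT hypoxia libraries, and in normoxia it was at 7.39 ± 0.311 FPKM in DKO and 6.31 ± 0.6 FPKM in WT. Zfp760 had 1.39, 1.57 and 1.44 FPKM in DKO hypoxia libraries, against 2.31, 2.55 and 3.02 FPKM in WT hypoxia libraries, and in normoxia it was at 4.91 ± 0.214 FPKM in DKO and 4.51 ± 0.123 FPKM in WT. Clec2d had 24.6, 27 and 28 FPKM in DKO hypoxia libraries, against 33.3, 34.5 and 36.5 FPKM in WT hypoxia libraries, and in normoxia it was at 52 ± 5.51 FPKM in DKO and 43.2 ± 1.82 FPKM in WT. In these 3 genes the DKO libraries lay below the WT libraries in hypoxia. Arhgap20, with a more positive effect in hypoxia, had 3.55, 3.56 and 3.96 FPKM in DKO hypoxia libraries, against 2.55, 2.71 and 2.7 FPKM in WT hypoxia libraries, and in normoxia it was at 2.38 ± 0.0258 FPKM in DKO and 2.85 ± 0.149 FPKM in WT.

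The difference of Map3k10 is that between a log2 fold change of -4.11 in normoxia and -3.09 in hypoxia: the gene was low in DKO at both oxygen levels. No group here has more than 3 libraries, so single libraries were not tested for standing apart from their group.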

How the results depend on the processing

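The 6 hypoxia libraries alone gave 1479 called genes in hypoxia, 741 higher and 738 lower, against 1832 with all libraries. Leaving out 1 library at a time gave 1175 (without WT hypoxia library 2) to 1425 called genes in hypoxia, and 1185 without DKO hypoxia library 1. In normoxia it gave 583 (without WT library 2) to 804, and 617 without DKO library 2, against 929. For the difference between oxygen levels it gave 1 to 39, against 22. Testing each transcript on its own called 1216 genes in hypoxia, 557 in normoxia and 0 for the difference (2168 transcripts at an unadjusted p under 0.05). The difference also called 12 genes under quantile normalization, 6 without the variance trend and 153 with array weights. With a replicate block, limma called 1783 genes in hypoxia, 899 in normoxia and 1 for the difference, which was Map3k10; the replicate numbers did not pair the libraries. Removing the GC and length trend put higher genes at 54.5% of the hypoxia calls, close to the 54.7% under equal medians. Of the 173 called genes among the 177 that the rule named, 143 kept their call in every alternative run on summed genes in hypoxia. Another 30 lost it in at least 1 (13 of them only with a library left out), and none reversed. Single transcripts were not part of this check. The targeted genes kept their direction in each alternative. With 3 libraries a group and a median SE of 0.0680, small changes of weakly expressed genes were the hardest to detect: the median called change was 0.42 at 1 to 5 FPKM and 0.21 at 20 FPKM or more.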

Other observations

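The share of called genes rose little with expression: 14.2% of 3008 genes with a mean of 1 to 5 FPKM, 15.6% of 4051 with 5 to 20 FPKM and 17.9% of 4319 with 20 FPKM or more were called in hypoxia. Protein-coding genes were called in 1766 of 10811 cases (16.3%) and other gene types in 66 of 567 (11.6%). Over 884 tested members of the 50 lists, 240 were called (27.1%), beside 16.1% of all genes; the lists were chosen with earlier results known, so this share is a description.

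Among genes called in hypoxia, 1497 of 1832 (81.7%) had a normoxia effect of the same sign, and 61.6% of all genes did. Within 5 Mb of Map3k10, 31 of 136 genes were called in normoxia, and 26 of them were called in the same direction in hypoxia.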
